A study of Mus musculus with 6 samples.

Results

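The genes described here are 10 genes of phosphate transport and of the related Slc17 anion carriers: Slc17a1, Slc17a2, Slc17a3, Slc17a5, Slc34a1, Slc34a3, Slc20a1, Slc20a2, Slc9a3r1 and Xpr1. They were taken by symbol from a table of gene counts with 46095 rows, and all 10 were found and passed the filter on low counts, which left 15367 genes tested. RNA was sequenced from 6 mouse kidney samples on a C57BL/6 background. The DHT group (n = 3) carries the treatment label DHT, the usual abbreviation of dihydrotestosterone, a potent androgen used in mice to model polycystic ovary syndrome (PCOS), and the control group (n = 3) carries the label control. The strain label names the PCOS mouse for both groups, so the comparison rests on the treatment label. The labels do not state age, dose or length of exposure. They also do not say whether the 3 samples of a group came from different mice, and every p-value therefore reflects only how these samples vary, which may be technical.

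The kidney recovers most filtered phosphate in the proximal tubule, through sodium-coupled carriers of the brush border membrane. Slc34a1 (NaPi-IIa) and Slc34a3 (NaPi-IIc) are the carriers dedicated to this task, and parathyroid hormone and fibroblast growth factor 23 lower phosphate uptake by removing them from the membrane. Slc9a3r1 (NHERF1) is the scaffold protein that anchors Slc34a1 there. Slc20a1 and Slc20a2 (PiT-1 and PiT-2) are more widely expressed sodium-phosphate carriers, and Xpr1 is a phosphate exporter. The Slc17 proteins were first described as phosphate carriers; Slc17a1 and Slc17a3 are now known for urate and organic anion export by the proximal tubule, and Slc17a5 (sialin) for release of sialic acid from lysosomes.

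The libraries held 15054763 to 18624947 counts in DHT and 15994714 to 19331942 in control, and the 10 genes took 0.549% to 0.695% of them in DHT and 0.536% to 0.716% in control. Levels are given as CPM, gene counts scaled to an effective library size that is the same for all samples (TMM). Markers of every kidney cell type examined were detected, and none was at 0 in all libraries. Libraries differed in their marker levels. The summed CPM of 8 late proximal tubule markers was 4215, 1570 and 4133 in DHT replicates 1, 2 and 3, against 1007, 2245 and 1818 in control replicates 1, 2 and 3. In this list 2 of the 8 (Slc7a13 and Slc16a9) passed as higher, where 1.38% of all genes tested did. Its members differed in sign: 6 of the 8 fold changes were positive, and those of Slc22a19 and Serpina1f were negative (log2 -1.23 and -0.91, neither passing). The sum of 7 early proximal tubule markers was 2051, 2212 and 2662 CPM in DHT replicates 1, 2 and 3, against 4742, 3223 and 2017 CPM in control replicates 1, 2 and 3. All 7 had negative fold changes (median log2 -0.42), and 1 (Slc7a8) passed as lower, where 1.46% of all genes tested did. Of 7 endothelial markers, 1 (Ehd3) passed as higher (1.38% of all genes tested). DHT replicate 2 had the highest sum of 7 macrophage markers, 356 CPM, against 102 to 235 CPM in the other DHT libraries and 101 to 228 CPM in control. Control replicate 3 had the highest sum of 5 loop of Henle markers, 11477 CPM, against 4478 to 5468 CPM in DHT and 4334 and 6729 CPM in control replicates 1 and 2. The part of these differences in the results that follow was not tested, and in whole kidney RNA fewer cells of a type and less RNA per cell cannot be told apart.

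DHT kidneys had almost no Slc17a2 RNA, less Slc34a3 RNA, and more Slc17a1, Slc17a3 and Slc9a3r1 RNA on average, while Slc34a1, the most abundant of the 10, stood at the same mean level in both groups. Only the decrease of Slc17a2 passed the test: of the 10 genes 1 was lower and 0 were higher in DHT at an adjusted p of 0.05 (edgeR's quasi-likelihood test with Benjamini-Hochberg adjustment over all genes tested), where 1.46% of all genes tested were lower, 1.38% higher and 2.84% either. In DHT, Slc17a2 was under the filter's minimum count of 10 in every library, so it was tested only because of its level in control. At an unadjusted p of 0.05 the count was 6 of 10, against 23.9% of all genes. In 5 of 10 the CPM ranges of the groups did not overlap, against 29.8% of all genes, with 3 higher (14.8% of all genes) and 2 lower (15.0%) in DHT. The median log2 fold change of the 10 was 0.07, against 0.003 over all genes, and their range was -5.62 to 1.14. With DESeq2, 5 of the 10 passed (Slc17a1, Slc17a2, Slc17a3, Slc34a3 and Slc9a3r1), where 10.6% of all genes did, and with limma-voom 0 passed, where 2.09% of all genes did. Without DHT replicate 2, Slc17a1, Slc17a3 and Slc9a3r1 passed, where 7.76% of all genes did. Without control replicate 1, Slc17a2 passed, where 2.32% of all genes did. Without any of the other 4 libraries 0 of the 10 passed, where 0 to 89 of all genes did.

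**Figure D1:**
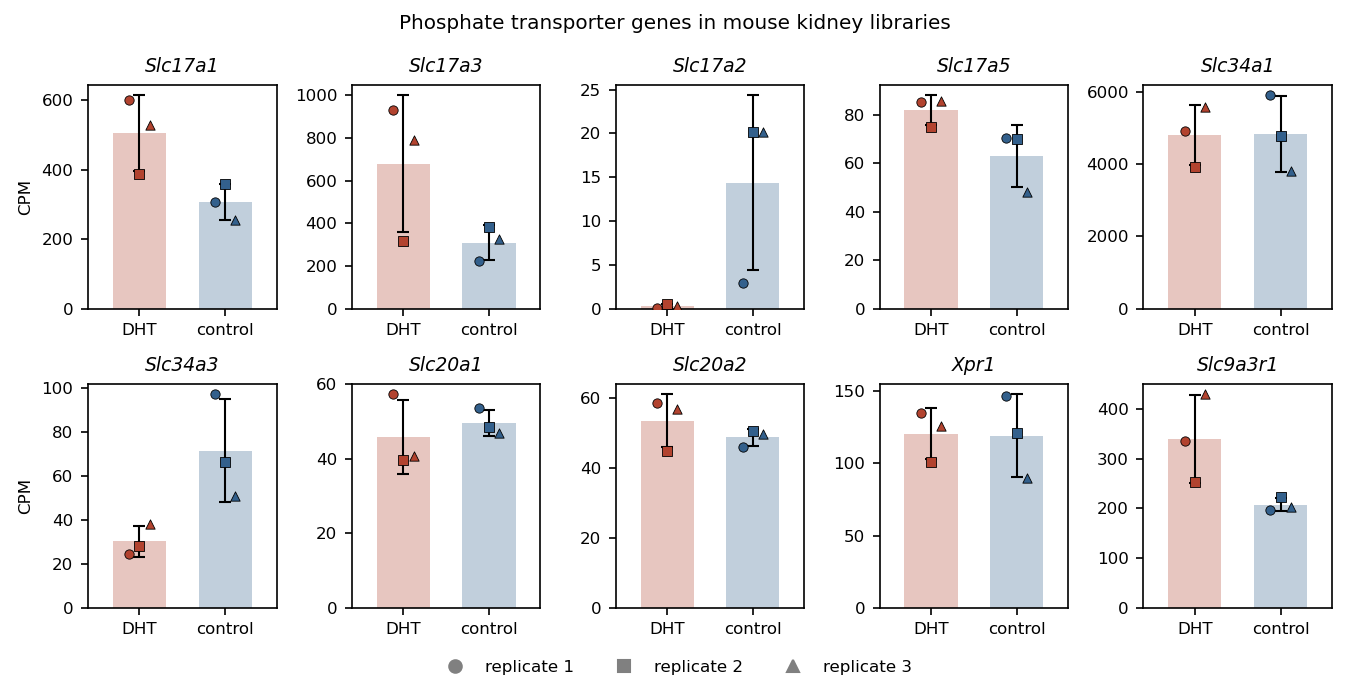
CPM of each gene in each library (points, marked by replicate), with the group mean (bar) and SD (error bar, n = 3), DHT left of control. Slc17a2 is at 0.501 CPM or less in all DHT libraries, Slc34a3 is lower in every DHT library than in any control, and the Slc34a1 groups overlap.

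**Figure D2:**
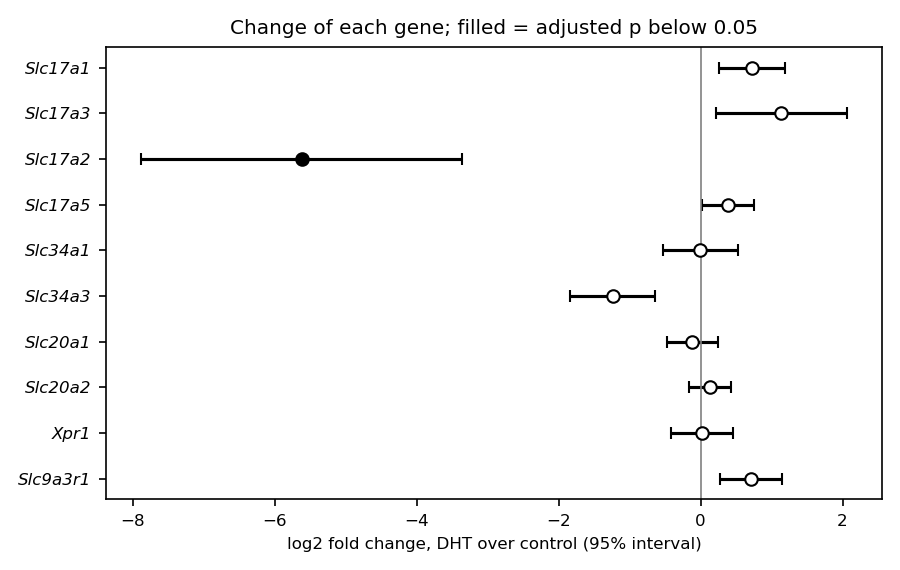
Log2 fold change of each gene, DHT over control, with its 95% interval from edgeR's quasi-likelihood fit. The filled point, Slc17a2 at -5.62, passed the adjusted threshold, and the intervals of Slc17a1, Slc17a3, Slc17a5, Slc34a3 and Slc9a3r1 also lie off 0.

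Slc17a2 (NPT3, ENSMUSG00000036110; chr13:23806993-23825180 on GRCm38, plus strand, 12 exons in its longest coding transcript) is a less studied carrier of the family. It had 1, 8 and 5 counts in DHT replicates 1, 2 and 3, or 0.0628, 0.501 and 0.297 CPM, against 47, 388 and 408 counts in control replicates 1, 2 and 3, or 2.89, 20.1 and 20.2 CPM. All 3 DHT libraries lay below all 3 controls, and control replicate 1 was far below the other controls. Slc17a2 fell to 0.287 ± 0.219 CPM in DHT, against 14.4 ± 9.97 CPM in control (mean ± SD, n = 3 each), a log2 fold change of -5.62 ± 0.95 SE (edgeR adjusted p = 0.0385). The 14 counts in DHT and 843 in control put the pooled level 52.6-fold lower in DHT than in control (95% exact interval on that ratio 31.2 to 96.7, for counting error only). RefSeq also lists Slc17a2 as an older symbol of Slc34a1; the table has a separate row for each.

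The call for Slc17a2 rested on most libraries: its adjusted p was 0.122, 0.07 and 0.144 without DHT replicate 1, 2 or 3, and 0.00206, 0.125 and 0.0913 without control replicate 1, 2 or 3 (edgeR). It was also lost with limma-voom (adjusted p = 0.122) and with no filter on low counts (0.108), and its smallest value was 1.02e-05, with DESeq2, while the log2 fold change stayed between -6.26 and -5.16 under all 14 alternatives.

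Slc17a3 lies next to Slc17a2 and Slc17a1 next to Slc17a3, and their mean levels were higher in DHT, without passing the test. Slc17a3 (NPT4; chr13:23839434-23860716, plus strand) had 930, 319 and 791 CPM in DHT replicates 1, 2 and 3, against 222, 382 and 325 CPM in control replicates 1, 2 and 3. DHT replicates 1 and 3 were above all controls, and DHT replicate 2 lay within the control range. The means were 680 ± 320 CPM in DHT and 310 ± 80.7 CPM in control, a log2 fold change of 1.14 ± 0.39 SE that did not pass (edgeR adjusted p = 0.141); without DHT replicate 2 it was 1.47 and passed (adjusted p = 0.0106), and over the alternatives its adjusted p ran from 0.0106 to 0.332.

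Slc17a1 (NPT1; chr13:23867750-23895730, plus strand) had 601, 387 and 530 CPM in DHT replicates 1, 2 and 3, against 307, 358 and 254 CPM in control replicates 1, 2 and 3. The groups did not overlap, with DHT replicate 2 just above control replicate 2. Its log2 fold change was 0.72 ± 0.20 SE with a 95% interval of 0.26 to 1.18 and did not pass (edgeR adjusted p = 0.0838). It passed without DHT replicate 2 (adjusted p = 0.0262), with DESeq2 (0.0084) and with no filter on low counts (0.0346), and reached 0.225 without DHT replicate 3.

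Promoters of Slc17a2 and Slc17a3 are shown because these neighbours of 1 family had fold changes of opposite sign. RefSeq windows from 250 bases before to 30 bases after the gene start (GRCm38.p6, plus strand) are given for Slc17a2 (chr13:23806743-23807022) and Slc17a3 (chr13:23839184-23839463). Sequences run 5′ to 3′ on the gene's strand, and capitals mark a match on either strand to the E-box CACGTG, to the receptor half-site AGAACA or to the receptor half-site AGGTCA.
Slc17a2: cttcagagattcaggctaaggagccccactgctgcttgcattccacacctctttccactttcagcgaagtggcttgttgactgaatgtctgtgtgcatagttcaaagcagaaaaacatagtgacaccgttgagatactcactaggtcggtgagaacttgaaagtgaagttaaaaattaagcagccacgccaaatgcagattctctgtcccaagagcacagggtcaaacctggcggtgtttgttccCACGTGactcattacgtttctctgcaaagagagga
Slc17a3: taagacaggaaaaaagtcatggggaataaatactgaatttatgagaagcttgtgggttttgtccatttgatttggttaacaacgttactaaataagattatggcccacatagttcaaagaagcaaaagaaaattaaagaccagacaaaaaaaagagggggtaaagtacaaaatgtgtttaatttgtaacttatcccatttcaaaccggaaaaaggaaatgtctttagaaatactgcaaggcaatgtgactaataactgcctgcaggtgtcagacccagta
The 3 motifs were chosen after expression values had been seen: CACGTG is the E-box read by basic helix-loop-helix factors such as the clock protein encoded by Arntl, AGAACA a half-site of androgen and glucocorticoid receptor elements, and AGGTCA a half-site of other nuclear receptors. The Slc17a2 window held CACGTG once, starting 5 bases before the gene start, and the Slc17a3 window held none of the 3. CACGTG stood in 6.79% of 32851 RefSeq promoter windows of the same length, AGAACA in 17.9% and AGGTCA in 15.4%. These shares are of single windows, whereas the 10 genes are counted by gene, and the 9 with a window had 11 windows. Slc17a1 and Slc20a1 had 2 windows each, so the units are unlike. Among the 9 genes of the 10 with a window, CACGTG was found in 2, Slc17a2 and Slc20a1. Slc20a1 held it at 2 places in the first of its 2 windows, 1 of them overlapping an AGGTCA match, and its log2 fold change was -0.12. AGAACA was found in 3 of the 9 genes (Slc17a1, Slc34a1 and Slc20a1) and AGGTCA in 4 (Slc17a1, Slc34a3, Slc20a1 and Xpr1).

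Within a library, the ratio of Slc17a2 to Slc17a1 plus Slc17a3 does not depend on scaling between libraries. It was 0.041, 0.709 and 0.225 Slc17a2 counts per 1000 counts of Slc17a1 and Slc17a3 in DHT replicates 1, 2 and 3, against 5.46, 27.2 and 34.8 in control replicates 1, 2 and 3. Every DHT library was below every control, with the nearest pair DHT replicate 2 and control replicate 1. The mean log2 ratio in DHT minus that in control was -6.53 (exact two-sided permutation test over 3 against 3 libraries, p = 0.1, the smallest this design allows). The ratio of DHT replicate 1 rests on 1 Slc17a2 count, and with 0.5 counts added to both terms the difference was -6.27. Slc17a1 and Slc17a3 had higher means in DHT, which lowers the ratio there, so it does not measure Slc17a2 alone.

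**Figure D3:**
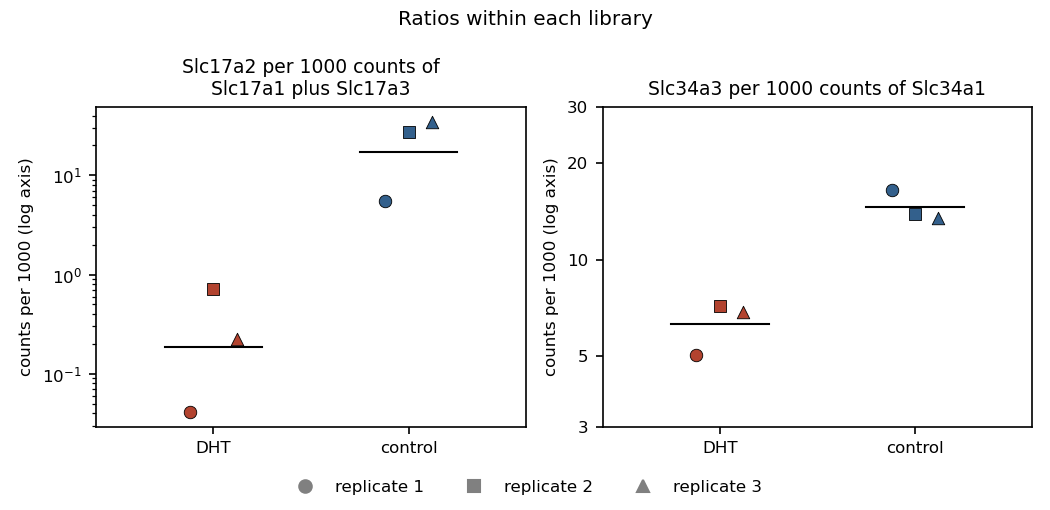
Slc17a2 counts per 1000 counts of Slc17a1 plus Slc17a3 (left) and Slc34a3 counts per 1000 counts of Slc34a1 (right) in each library, on log axes, DHT left of control; lines are geometric means. The groups do not overlap in either ratio: Slc34a3 stands at 5.03 to 7.18 in DHT and at 13.5 to 16.5 in control.

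The remaining gene of the cluster, Slc17a4, an intestinal member of the family, averaged 5.47 ± 3.02 CPM in DHT and 4.16 ± 1.47 CPM in control (SD, n = 3 each), and the groups overlapped (log2 fold change 0.40 ± 0.49 SE, edgeR adjusted p = 0.659). Of 29 other protein-coding genes within 250 kb of the cluster, 25 of them histone genes, 28 were in the table and 5 were tested. None of the 5 passed with edgeR (smallest adjusted p = 0.385), and their log2 fold changes ran from -0.40 to 0.08. Slc17a5, outside the cluster (chr9:78536488-78588041, minus strand), was at 85.3, 75.0 and 85.7 CPM in DHT replicates 1, 2 and 3, against 70.5, 70.1 and 48.1 CPM in control replicates 1, 2 and 3. Its groups did not overlap, but the gap was small beside the spread in control, and a log2 fold change of 0.38 ± 0.16 SE did not pass (edgeR adjusted p = 0.19, and 0.16 to 0.373 over the alternatives).

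Of the dedicated phosphate carriers of the brush border, Slc34a1 overlapped between the groups and Slc34a3 did not. Slc34a1 (chr13:55398187-55415592, plus strand) was at 4909, 3927 and 5580 CPM in DHT replicates 1, 2 and 3, against 5899, 4763 and 3800 CPM in control replicates 1, 2 and 3. All DHT libraries lay within the control range. The means were 4805 ± 831 CPM in DHT and 4821 ± 1051 CPM in control. The log2 fold change was -0.004 ± 0.23 SE (edgeR adjusted p = 0.992), with a 95% interval of -0.53 to 0.52, and a smaller difference in either direction was not detectable at this spread. Its sign depended on the libraries used, from -0.16 without control replicate 3 to 0.16 without control replicate 1. Exons of Slc34a1 share 545 bases, 11.7% of their length, with Pfn3 on the opposite strand, and reads there cannot be told apart because the strand setting of the counting is unknown.

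Slc34a3 (ENSMUSG00000006469; chr2:25228898-25234364, minus strand, 13 exons in its longest coding transcript) had 393, 450 and 645 counts in DHT replicates 1, 2 and 3, or 24.7, 28.2 and 38.3 CPM, against 1582, 1278 and 1035 counts in control replicates 1, 2 and 3, or 97.3, 66.3 and 51.2 CPM. Every DHT library was below every control, the highest DHT and lowest control being replicates 3 of each group. The means were 30.4 ± 7.05 CPM in DHT and 71.6 ± 23.5 CPM in control. The log2 fold change of -1.23 ± 0.26 SE lay just outside the threshold (edgeR adjusted p = 0.0504, unadjusted p = 0.0015, 95% interval -1.83 to -0.64). It passed with DESeq2 (adjusted p = 0.000214), with total counts (0.0359), with a filter of 1 CPM in 3 libraries (0.0487) and with no robust step (0.0444), and it failed to pass when any single library was left out (0.0541 to 0.144), with limma-voom (0.0521) or with no filter on low counts (0.0704).

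Within each group the libraries ranked alike by Slc34a3 and by the summed early proximal tubule markers. Over all 6 libraries the ranks differed. Control replicate 3 had the lowest marker sum, 2017 CPM, close to the 2051 CPM of DHT replicate 1. Its Slc34a3 level (51.2 CPM) was above that of every DHT library. The part of these marker levels in the lower Slc34a3 of DHT was not tested.

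The ratio of Slc34a3 to Slc34a1 within a library separated the groups. It was 5.03, 7.18 and 6.86 Slc34a3 counts per 1000 Slc34a1 counts in DHT replicates 1, 2 and 3, against 16.5, 13.9 and 13.5 in control replicates 1, 2 and 3. DHT libraries had a mean ratio of 6.35 ± 1.16 per 1000 and controls 14.6 ± 1.63 per 1000 (SD, n = 3 each). On the log2 scale DHT minus control was -1.21, with no overlap between the groups (exact two-sided permutation test, p = 0.1, the smallest this design allows), and between -1.31 and -1.05 without each library in turn. A ratio within a library shows unequal change of the pair, not which of them changed.

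Promoter windows of the pair are shown for the same reason as those of the cluster, since 1 of these carriers was lower in every DHT library and the other was not. They cover chr13:55399398-55399677 (plus strand) for Slc34a1 and chr2:25234205-25234484 (minus strand) for Slc34a3, with the same capitals. GENCODE places the start of both genes further upstream than these RefSeq starts.
Slc34a1: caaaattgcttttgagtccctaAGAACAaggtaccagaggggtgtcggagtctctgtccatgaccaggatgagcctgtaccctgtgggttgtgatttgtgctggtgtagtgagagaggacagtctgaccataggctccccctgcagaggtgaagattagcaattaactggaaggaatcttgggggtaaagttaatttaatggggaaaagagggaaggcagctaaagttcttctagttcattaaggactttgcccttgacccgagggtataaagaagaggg
Slc34a3: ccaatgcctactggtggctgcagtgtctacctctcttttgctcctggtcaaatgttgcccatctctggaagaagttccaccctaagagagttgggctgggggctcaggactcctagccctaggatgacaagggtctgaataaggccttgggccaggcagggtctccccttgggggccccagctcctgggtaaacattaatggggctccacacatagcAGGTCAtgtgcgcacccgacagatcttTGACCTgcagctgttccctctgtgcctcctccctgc
The Slc34a1 window held AGAACA once, starting 228 bases before the start. The Slc34a3 window held AGGTCA at 2 places, 1 on each strand, starting 33 and 6 bases before the start, and neither CACGTG nor AGAACA. Positions are relative to the RefSeq start, and these matches all lie inside the GENCODE bounds of their genes. The matches are letters in a window and say nothing of which proteins bind there.

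The scaffold gene Slc9a3r1 (chr11:115163341-115181181, plus strand) was higher in every DHT library than in any control. It was at 336, 254 and 429 CPM in DHT replicates 1, 2 and 3, against 197, 223 and 203 CPM in control replicates 1, 2 and 3. DHT replicate 2 was again nearest to the controls, as it also was over all genes tested. The means of 340 ± 87.6 CPM in DHT and 208 ± 13.3 CPM in control gave a log2 fold change of 0.71 ± 0.19 SE (95% interval 0.27 to 1.15), which did not pass (edgeR adjusted p = 0.0766). Slc9a3r1 passed without DHT replicate 2 (adjusted p = 0.0166), with DESeq2 (0.00796) and with no filter on low counts (0.0309), and reached 0.202 without DHT replicate 3.

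The widely expressed carriers and the exporter showed overlapping groups. Slc20a1 (chr2:129198764-129211616, plus strand) was at 57.2, 39.6 and 40.6 CPM in DHT replicates 1, 2 and 3, against 53.6, 48.5 and 46.9 CPM in control replicates 1, 2 and 3 (log2 fold change -0.12 ± 0.16 SE, 95% interval -0.47 to 0.24, edgeR adjusted p = 0.689). Slc20a2 (chr8:22476788-22569612, plus strand) was at 58.7, 44.8 and 57.0 CPM in DHT, against 46.0, 50.7 and 49.8 CPM in control (0.13 ± 0.13 SE, 95% interval -0.16 to 0.43, edgeR adjusted p = 0.567). Both genes ranged more widely in DHT than in control. Xpr1 (chr1:155275701-155417415, minus strand) was at 135, 101 and 126 CPM in DHT, against 147, 121 and 89.8 CPM in control, a log2 fold change of 0.02 ± 0.19 SE whose sign turned with total counts (-0.09). It also turned when control replicate 3 was left out (-0.16), and likewise for DHT replicates 1 and 3 (-0.07 and -0.01). Its 95% interval was -0.42 to 0.45 (edgeR adjusted p = 0.964), and no difference of Xpr1 or the Slc20 genes was detectable at this spread. Of Slc20a1's exonic length, 8.1% and 5.02% are shared with the non-coding genes 9830144P21Rik and Gm4430 on the opposite strand, and 1.53% of that of Slc20a2 with Smim19.

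Levels can be compared between genes per kilobase of exon (GENCODE M21, all exons merged). On this scale the order from high to low in control was Slc34a1, Slc17a1, Slc9a3r1, Slc17a3, Slc34a3, Slc17a5, Slc20a1, Slc20a2, Xpr1 and Slc17a2. Slc34a1 stood at 1028 ± 178 CPM per kb in DHT and 1031 ± 225 in control, and the next, Slc17a1, at 213 ± 46.0 in DHT and 129 ± 21.9 in control (SD, n = 3 each). Slc34a3 was at 12.9 ± 2.99 CPM per kb in DHT and 30.4 ± 9.96 in control, below Slc17a5 (22.6 ± 1.68) in DHT and above it (17.3 ± 3.53) in control. The lowest, Slc17a2, was at 0.0482 ± 0.0368 CPM per kb in DHT and 2.42 ± 1.67 in control. In control the ranges of Slc17a1 and Slc9a3r1, of Slc17a3 and Slc34a3, and of Slc20a2 and Xpr1 overlapped, and in DHT those of Slc17a1 and Slc9a3r1, Slc9a3r1 and Slc17a3, Slc20a2 and Slc20a1, and Slc20a1 and Xpr1; only genes next to each other in rank were compared. With the length of the longest coding transcript in place of all exons, the first 6 and the last in control were unchanged, and Xpr1 moved above both Slc20 genes.

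**Figure D4:**
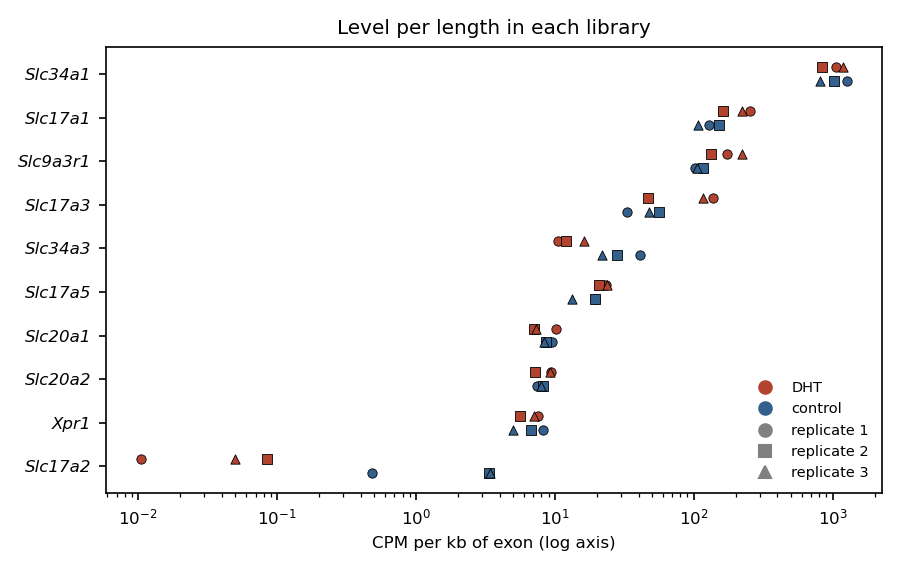
CPM per kb of merged exon in each library, on a log axis, DHT above control in each row, genes ordered by their control mean. Slc34a1 lies at 813 or more in every library, and Slc17a2 is lowest in both groups and spreads most between them.

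Expression profiles over the 6 libraries were set beside those of all genes averaging 5 CPM or more, by the root mean square difference of log2 CPM after centring each gene. The 3 genes closest to Slc17a2 were Loxl4, a lysyl oxidase that cross-links matrix (difference 0.79), and the clock activators Npas2 (0.792) and Arntl (0.837). Loxl4 was at 0.942, 1.63 and 0.949 CPM in DHT replicates 1, 2 and 3, against 4.49, 31.1 and 22.5 CPM in control replicates 1, 2 and 3. Npas2 was at 0.503, 0.939 and 0.831 CPM in DHT, against 6.82, 21.0 and 13.5 CPM in control. Arntl was at 0.314, 2.69 and 2.02 CPM in DHT, against 17.6, 33.9 and 26.2 CPM in control. Like Slc17a2, all 3 were lower in every DHT library than in any control and lowest among controls in replicate 1; since they were picked for this profile, these levels are a description with no test. Those closest to Slc34a1 were Helb, a DNA helicase (0.0289), 3632451O06Rik (0.0461) and Kcnj16, a potassium channel subunit (0.0699), likewise picked by profile.

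Genes that regulate phosphate handling were described as a list by membership. Of 22 named, 21 were in the table and 18 were tested, and 0 passed with edgeR (2.84% of all genes), 2 with DESeq2 (10.6% of all genes) and 0 with limma-voom (2.09%). With edgeR 4 of 18 had an unadjusted p below 0.05, against 23.9% of all genes. The median log2 fold change was -0.19, against 0.003 over all genes, with 13 of 18 negative. In 5 of 18 the groups did not overlap, all lower in DHT, against 29.8% of all genes in either direction and 15.0% lower. In either direction these shares are near those of all genes. The hormones Fgf23 and Pth, made outside the kidney, had 0 counts. Cyp27b1, which makes active vitamin D in the proximal tubule, had 23, 40 and 72 counts in DHT replicates 1, 2 and 3, against 143, 88 and 243 counts in control replicates 1, 2 and 3, or 2.74 ± 1.43 CPM in DHT and 8.46 ± 3.74 CPM in control. Its CPM ranges did not overlap (log2 fold change -1.62 ± 0.46 SE, edgeR adjusted p = 0.0894). It passed with DESeq2 alone (adjusted p = 0.00793; 0.0878 to 0.208 under the other alternatives). Fgfr3, a receptor for fibroblast growth factors, was at 45.4, 43.2 and 42.2 CPM in DHT and 47.2, 69.9 and 63.7 CPM in control (-0.47 ± 0.15 SE, edgeR adjusted p = 0.113), and passed only without control replicate 1 (adjusted p = 0.0461; up to 0.312 otherwise).

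Of 13 genes of the brush border scaffold and its links to the cytoskeleton, 1 was lower and 0 were higher (1.46% and 1.38% of all genes), and 1 had an unadjusted p below 0.05 (23.9% of all genes). In 3 of 13 the groups did not overlap, all lower in DHT (15.0% of all genes), and the median log2 fold change was -0.05. The gene was Shank2, a scaffold protein with a PDZ domain, at 35.7, 42.3 and 40.6 CPM in DHT replicates 1, 2 and 3, against 85.7, 85.1 and 96.3 CPM in control replicates 1, 2 and 3. Replicates lay close together and the groups far apart, with a log2 fold change of -1.17 ± 0.12 SE (edgeR adjusted p = 0.0111). Shank2 was called under 12 of 14 alternatives, the exceptions being without DHT replicate 3 (adjusted p = 0.091) and without control replicate 2 (0.0582). The other PDZ scaffolds Pdzk1 and Slc9a3r2 had log2 fold changes of 0.28 ± 0.21 and 0.29 ± 0.16 SE and did not pass (edgeR adjusted p = 0.453 and 0.302).

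Since Slc17a1 and Slc17a3 carry urate, 11 other genes of urate transport and formation were set beside them. Of these 1 was higher and 0 were lower (1.38% and 1.46% of all genes), and 6 of 11 had an unadjusted p below 0.05 (23.9% of all genes). In 5 of 11 the groups did not overlap, all higher in DHT (14.8% of all genes), while the median log2 fold change was -0.06, with a range of -2.13 to 1.45. Slc16a9, a monocarboxylate and carnitine carrier linked to urate levels in humans, was at 252, 196 and 261 CPM in DHT replicates 1, 2 and 3, against 95.7, 155 and 112 CPM in control replicates 1, 2 and 3. The groups did not overlap (log2 fold change 0.97 ± 0.20 SE, edgeR adjusted p = 0.044). Its call was lost without DHT replicate 1 or 3 (adjusted p = 0.126 and 0.161) and without control replicate 1, 2 or 3 (0.0761, 0.0801 and 0.108); its smallest value was 0.000262, with DESeq2. Slc16a9 is also 1 of the 8 late proximal tubule markers whose sums are given above, and so is Slc5a8. In the urate list Slc5a8 had the highest log2 fold change, 1.45, and its groups did not overlap (edgeR adjusted p = 0.0696). The other 5 Slc17 and the remaining Slc34 gene listed, 6 in all, were at 1 count or less in 2 cases (Slc17a6 and Slc17a7), and of the 4 tested 0 passed with edgeR, with 0 at an unadjusted p below 0.05; Slc34a2, the carrier of lung and intestine, and Slc17a9, a vesicular nucleotide carrier, had log2 fold changes of -0.56 ± 0.32 and -0.50 ± 0.50 SE (edgeR adjusted p = 0.322 and 0.578).

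**Figure D5:**
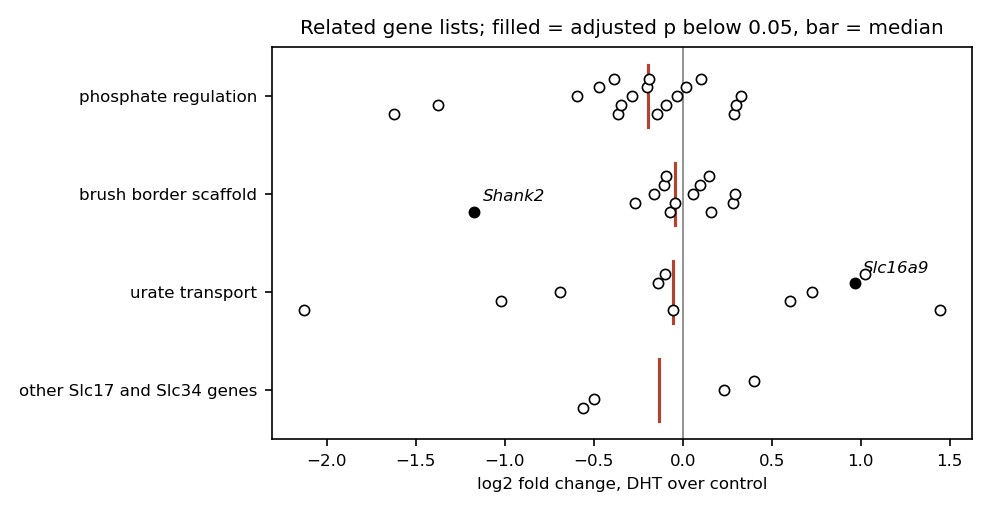
Log2 fold change, DHT over control, of each tested gene in 4 related lists; filled points passed the adjusted threshold and red bars are list medians. Shank2 at -1.17 and Slc16a9 at 0.97 are the called genes.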

How the data were processed

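RNA was measured in 6 kidney libraries, 3 DHT and 3 control, grouped by the treatment label. Per the submitters' processing notes, HISAT2 2.0 and mm10 were used; per the labels' protocols, RNA was extracted with Trizol for mRNA libraries. The authors deposited raw counts per gene symbol, with no normalization. The counting tool, annotation and strand setting were not given in the sources used.

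Counts were filtered with filterByExpr (minimum count 10, minimum total 15), scaled by TMM and tested with edgeR 4.0.16 (R 4.3.3; robust quasi-likelihood fit, group as the single term, Benjamini-Hochberg adjustment over 15367 genes, threshold 0.05). The SE is that implied by the F statistic. The fit was also run on simulated counts, where it did not call every changed gene. The common biological coefficient of variation was 0.217. Alternatives were other scalings, filters and tests (DESeq2 1.42.0, limma-voom 3.58.1), a replicate block and leaving out each library. Pairs of libraries differed beyond sampling noise, by a chi-square statistic per degree of freedom over all genes tested. On this measure DHT replicate 2 lay nearer to control replicates 1 and 2 (44.6 and 49.2) than to DHT replicates 1 and 3 (57.4 and 53.1). Its value against control replicate 3 was 57.4, and DHT replicates 1 and 3 differed by 23.3. Coordinates and lengths came from GENCODE M21 on GRCm38, the assembly of mm10, and promoters from RefSeq. No member had a transcript elsewhere at 95% identity over 50% of its length (BLAST 2.17.0+).

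The members and lists were chosen with earlier results of these data known. All 10 members were named; of other lists except the cell type markers, genes that passed (up to 4) or else the 2 with the smallest p. Slc17a4, Pdzk1, Slc9a3r2, Stc2, Slc5a8, Slc7a13, Slc7a8, Ehd3, Atp11a, Slc22a19 and Serpina1f were named after their values were seen. So were Slc22a6, Slc22a7, Slc22a8, Slc22a12 and Slc22a13.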

Additional observations from a re-analysis of the deposited data

How the results depend on the processing

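The number of the 10 genes that passed was 1 in the fit as reported and also 1 with median-ratio size factors and with the replicate block. It was 2 with total counts, 2 with no low-count filter, 2 with 1 CPM in 3 libraries, 2 with no robust step, 5 with DESeq2 and 0 with limma-voom, and ran from 0 to 3 over the fits without 1 library. Over all genes 437 of 15367 passed (2.84%). The number was 443 of 15367 with median-ratio size factors, 340 of 15367 with total counts and 468 of 15367 with no robust step. It was 852 of 25414 with no low-count filter and 451 of 14218 with 1 CPM in 3 libraries. With the replicate block it was 85 of 15367. DESeq2 gave 1634 of 15360 (10.6%) and limma-voom 321 of 15367 (2.09%). Without 1 library the number ran from 0 (without DHT replicate 3) to 1224 of 15772 (7.76%, without DHT replicate 2). Of the phosphate regulation list 0 passed, against 2 with DESeq2 (Cyp27b1 and Stc2) and 0 to 1 without 1 library. Total counts moved the median log2 fold change of all genes to -0.10. The log2 fold change of Slc34a1, -0.004, turned to 0.00205 with the replicate block and ran from -0.16 to 0.16 over the fits leaving out 1 library. That of Xpr1, 0.02, turned to -0.0889 with total counts and ran from -0.16 to 0.19 over those fits. The cause of these changes was not tested. The other 8 genes kept their direction under all 14 alternatives. The log2 ratio of Slc17a2 to Slc17a1 plus Slc17a3 ran from -7.49 to -5.44 without 1 library, and that of Slc34a3 to Slc34a1 from -1.31 to -1.05; permuting within replicate pairs gave an exact p of 0.25 for each, the smallest that 3 pairs allow. Whether same-numbered libraries were paired is not known from the labels. Deviations of such libraries from their group means correlated at 0.07, -0.15 and 0.04, and 2 of 6 libraries correlated best with their own number. So few libraries cannot exclude a shared batch. In the replicate block Slc17a2 passed (adjusted p = 0.0112) and the other 9 genes did not; Slc16a9 lost its call there (0.105). With 14 counts in DHT, Slc17a2 is limited by counting there.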

Other observations

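Control replicate 1, where Slc17a2 was lowest among controls, was also lowest among controls for 3 Slc22 carriers and the serpin Serpina1f. They were chosen after their values were seen, and other Slc22 carriers of the urate list did not share this order. Slc22a6 (542, 504 and 416 CPM in control replicates 1, 2 and 3) and Slc22a8 (1088, 981 and 701 CPM) were highest in control replicate 1. Slc22a12 (5.23, 6.43 and 4.21 CPM) lay between the other controls there. Slc22a19 and Serpina1f are 2 of the 8 late proximal tubule markers. Slc22a7, an organic anion transporter, was at 39.4, 13.3 and 74.3 CPM in DHT replicates 1, 2 and 3, against 41.3, 251 and 264 CPM in control replicates 1, 2 and 3 (edgeR adjusted p = 0.202). Slc22a13, a urate and nicotinate carrier, was at 38.6, 51.2 and 70.4 CPM in DHT and 30.1, 154 and 141 CPM in control (edgeR adjusted p = 0.347). Slc22a19 was at 63.0, 45.8 and 108 CPM in DHT, against 39.6, 234 and 236 CPM in control (edgeR adjusted p = 0.328). Serpina1f was at 82.4, 122 and 162 CPM in DHT, against 55.2, 368 and 265 CPM in control (edgeR adjusted p = 0.444). In these 4 genes control replicate 1 lay below at least 1 DHT library, whereas its Slc17a2 level stayed above all 3 of them. Of the other members, Slc17a3, Slc9a3r1 and Slc20a2 were also lowest among controls in control replicate 1 (222, 197 and 46.0 CPM). Slc34a1, Slc34a3, Slc17a5, Slc20a1 and Xpr1 were highest among controls there. For Slc17a5 the lead was small, 70.5 CPM against 70.1 CPM in control replicate 2. Slc17a1 lay between the other controls.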
